A study of Homo sapiens with 12 samples.

Results

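The genes described here are 10 long noncoding RNAs (lncRNAs) known from tumours: MALAT1, NEAT1, PVT1, CCAT1, CASC8, UCA1, LUCAT1, PCAT7, CRNDE and CYTOR. They were chosen by name, as the rows of the total RNA count table that carry these names, and all 10 were found among the 54261 genes of that table. CYTOR is listed there under its older symbol, LINC00152. HCT116oxR cells were set against the HCT116 cells they came from, a line of human colorectal carcinoma called parental here. HCT116oxR arose by exposure to oxaliplatin, a platinum compound that cross-links DNA, at doses raised stepwise between 0.1 µmol/L and 5 µmol/L, the last held for 1 year. From either line 3 libraries of total RNA and 3 of small RNA were made, from cultures that the labels call independently grown and harvested. With 1 resistant line and 1 parent, a p-value here measures spread among cultures, not among resistant lines derived independently. Whether the drug was present at harvest is not given in the sources used here.

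LncRNAs are transcripts without a long open reading frame, and many are spliced and polyadenylated like messenger RNAs. MALAT1 stays in the nucleus at nuclear speckles, bodies rich in splicing factors, and NEAT1 is the scaffold around which paraspeckles, another kind of nuclear body, assemble. PVT1, CCAT1 and CASC8 flank MYC in a region of chromosome 8 that carries inherited risk of colorectal cancer and is often gained in tumours. UCA1, LUCAT1, PCAT7, CRNDE and CYTOR were named for, or first followed in, tumours of the bladder, lung, prostate, colon and other tissues, and UCA1, LUCAT1 and CYTOR are described as present in the cytoplasm as well as the nucleus.

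The total RNA libraries held 11950069 to 13558077 counts each and the small RNA libraries 16089595 to 18147051. Of 12 markers of colorectal epithelium, 7 had at least 10 counts in every total RNA library. The summed level of all 12 was 3697 to 3780.3 CPM (counts scaled to a common library total) in HCT116oxR and 3077 to 3184 CPM in parental cells. Of the 7 markers tested, 4 rose, 1 fell and 2 did not pass, beside 22.3% rising and 21.8% falling over all genes tested. KRT8, KRT18, CDX2 and EPCAM rose, with log2 fold changes of 0.42, 0.53, 0.51 and 0.25, KRT19 (named after its value was seen) fell by 0.13, and CEACAM5 had 0 counts in every library. Markers of 16 other cell-type genes summed to 54.3 to 60.8 CPM in HCT116oxR and 68.8 to 82.7 CPM in parental cells, and PTPRC, CD3E, GFAP, HBA1 and HBB had 0 counts throughout. Of these 16 genes 4 were tested, of which 0 rose, 2 fell and 2 did not pass, beside the same shares over all genes. CD68, a lysosomal protein used as a macrophage marker, fell by 1.09 ± 0.17 and COL1A1 by 0.30 ± 0.07 on the log2 scale. Their part in the results below was not tested.

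All 10 lncRNAs had enough counts to be tested. In HCT116oxR, 4 rose (CASC8, CRNDE, UCA1 and CCAT1), 4 fell (LUCAT1, PCAT7, CYTOR and NEAT1) and 2 did not pass the threshold (MALAT1 and PVT1). A gene was called when its adjusted p from edgeR's quasi-likelihood F test, Benjamini-Hochberg over the 17511 genes tested, was under 0.05. By this rule 44.1% of all genes tested were called, 22.3% higher and 21.8% lower, and 33.1% of the 1884 lncRNAs tested were called, 13.6% higher and 19.5% lower. CASC8 and CRNDE rose at least 2-fold, and LUCAT1 and PCAT7 fell at least 2-fold. Changes of that size passed in 8.71% of all genes (4.88% higher and 3.83% lower) and in 16.1% of lncRNAs (6.9% higher and 9.24% lower). For 5 of the lncRNAs every HCT116oxR library lay above every parental library, for 4 every HCT116oxR library lay below, and for MALAT1 the lines overlapped. Across all genes tested, 50.5% did not overlap between the lines (25.7% above and 24.8% below), and across lncRNAs 39.2% (16.3% above and 22.8% below). Gene lengths were not used, so levels are compared between lines and not between genes.

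**Figure D1:**
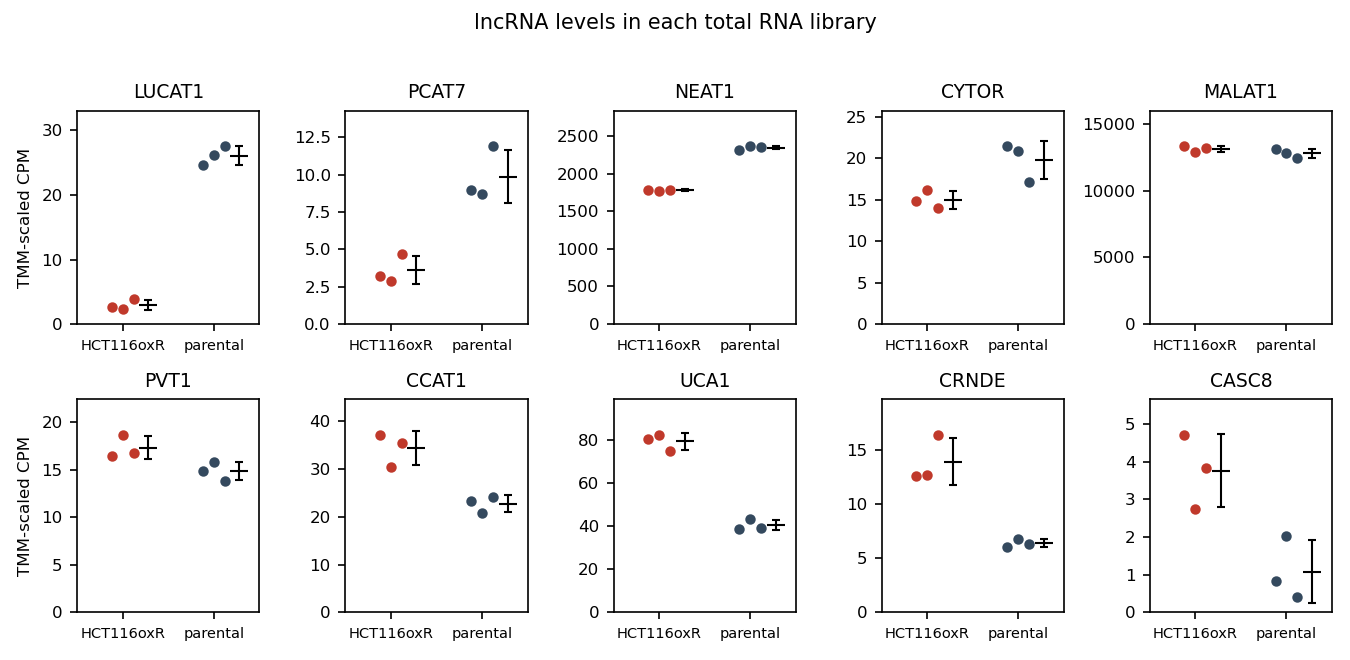
Level of each lncRNA in every total RNA library, as CPM scaled by TMM factors, with HCT116oxR on the left and parental cells on the right of each panel. Points are libraries, and the bars beside them give the mean and SD of 3 libraries. LUCAT1, PCAT7, NEAT1 and CYTOR lie lower in all 3 HCT116oxR libraries, and MALAT1 is the panel in which the lines overlap.

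LUCAT1 showed the greatest change of the 10. This lncRNA (chr5:91302986-91314402, minus strand) was first described in the airway cells of smokers and is known as a transcript induced by stress and by the oxidant-responsive factor NRF2. The 3 HCT116oxR libraries held 36, 31 and 47 counts, against 326, 311 and 340 in the parental libraries. This is 2.66, 2.31 and 3.83 CPM in HCT116oxR and 24.6, 26.2 and 27.5 CPM in parental cells. No library of one line came near any of the other. The mean was 2.93 ± 0.795 CPM in HCT116oxR and 26.1 ± 1.46 CPM in parental cells (SD, n = 3 each). LUCAT1 was 8.93-fold lower in HCT116oxR, with a log2 fold change of -3.16 ± 0.16 (SE) and an adjusted p of 2.74e-38. Over all alternative settings its log2 fold change lay between -3.39 and -3.01.

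The 300 bases around the RefSeq start of LUCAT1, 250 before it and 50 from it on (GRCh38.p14, chr5:91314353-91314652, minus strand), are shown because they hold the only match to an NRF2 antioxidant response element (TGACNNNGC) among the falling lncRNAs with a promoter entry. The capitals mark that match, which lies 54 bases before the start on the opposite strand and overlaps an AP-1 match (TGANTCA, read here as TGAGTCA) that begins 52 bases before it.
LUCAT1: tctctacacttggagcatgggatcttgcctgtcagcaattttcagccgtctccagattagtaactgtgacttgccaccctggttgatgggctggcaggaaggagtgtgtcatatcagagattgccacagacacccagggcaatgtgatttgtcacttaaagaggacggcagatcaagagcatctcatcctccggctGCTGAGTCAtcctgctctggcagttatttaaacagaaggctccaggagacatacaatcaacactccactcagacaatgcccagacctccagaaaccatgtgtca
Searched on both strands, TGACNNNGC occurred in 13.3% and TGANTCA in 7.71% of 35116 RefSeq promoter windows of this length. A match of letters is a description and no evidence of binding. The E-box of MYC (CACGTG), the hypoxia response element (ACGTG) and the TEAD site (GGAATG) were searched in the same way and occurred in 7.26%, 21.4% and 14.0% of windows. PCAT7 had a match to the hypoxia element 245 bases and to the TEAD site 182 bases before its start, and the window of CRNDE matched none of the motifs. Of the other lncRNAs, MALAT1 had a promoter window with matches to TGACNNNGC as well, at 231 and 51 bases before the start, and MALAT1 did not pass the threshold.

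NRF2 targets are genes of glutathione synthesis, iron storage and quinone detoxification that cells switch on under oxidant or electrophile stress. Of 32 such genes, 25 were tested, 21 fell, 1 rose and 3 did not pass. The median log2 fold change was -0.71, against -0.00057 over all genes tested, of which 22.3% rose and 21.8% fell. The list and its low values were known from earlier work on these libraries. SQSTM1, the autophagy receptor p62, averaged 297 ± 3.37 CPM in HCT116oxR and 942 ± 19.9 CPM in parental cells and fell by 1.67 ± 0.03 on the log2 scale. OSGIN1, an oxidative stress-induced growth inhibitor, fell by 1.45 ± 0.10, and AKR1C3, an aldo-keto reductase, fell by 1.71 ± 0.27. AKR1B10, another aldo-keto reductase, was called lower on few counts, 2, 1 and 0 in HCT116oxR against 29, 13 and 20 in parental cells. The 1 gene of the list that rose was PGD, an enzyme of the pentose phosphate pathway, at 0.13 ± 0.04, named after its value was seen. Of the 21 that fell, 9 did so at least 2-fold.

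The genes beside LUCAT1 did not share its size of change. ARRDC3, an arrestin-domain protein whose gene lies 54.2 kb away, fell to 64.0 ± 2.98 CPM in HCT116oxR, against 103.03 ± 1.33 CPM in parental cells, a log2 fold change of -0.69 ± 0.06 (adjusted p 7.75e-21). The fall of ARRDC3 did not pass against a fold of 1.5 (adjusted p 0.115). ADGRV1, an adhesion receptor 138.5 kb away on the other side, had a log2 fold change of -0.11 ± 0.08 and did not pass (adjusted p 0.284). The median log2 fold change was 0.00 over the 8 tested genes within 1 Mb of LUCAT1 and 0.02 over the 455 protein-coding genes of the rest of the arm.

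PCAT7, a transcript first catalogued in prostate cancer (chr9:94554599-94574654), also fell. It had 44, 39 and 58 counts in HCT116oxR and 119, 104 and 147 in parental cells. The levels were 3.25, 2.91 and 4.73 CPM in HCT116oxR and 8.98, 8.75 and 11.9 CPM in parental cells, with no overlap. Means of 3.63 ± 0.966 CPM in HCT116oxR and 9.87 ± 1.76 CPM in parental cells (SD, n = 3 each) gave a 2.73-fold lower level, a log2 fold change of -1.45 ± 0.20 and an adjusted p of 3.42e-10. FBP2, a gluconeogenic enzyme whose gene overlaps PCAT7, had 0 counts in each HCT116oxR library and 0, 1 and 0 counts in the parental libraries, so reads assigned to it were nearly absent. The lncRNA LOC124902218 overlaps one end of PCAT7.

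PCAT7 lies on the long arm of chromosome 9, where many genes were lower in HCT116oxR. Of the 383 protein-coding genes of that arm more than 1 Mb from PCAT7, 225 fell and 28 rose, with a median log2 fold change of -0.32. The 16 tested genes within 1 Mb had a median of -0.09, and those within 5 Mb had -0.26. Measured against the median of the arm in each library, PCAT7 stood at 2.04 ± 0.358 in HCT116oxR and 3.15 ± 0.238 in parental cells on the log2 scale, a difference of -1.11, and the lines still did not overlap. The nearest tested genes were LOC107987100, at a log2 fold change of -0.14 ± 0.34, and C9orf3, an aminopeptidase gene, at -0.24 ± 0.10 (adjusted p 0.0311). The C9orf3 call was lost in DESeq2 (-0.24), with upper quartile factors (-0.22), and without HCT116oxR replicate 2 (-0.18), parental replicate 1 (-0.20) or parental replicate 2 (-0.22).

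CYTOR, known for roles in the cytoskeleton and in cell spreading (chr2:87455427-87521518), fell less. It had 201, 216 and 172 counts in HCT116oxR and 284, 248 and 212 in parental cells. The levels were 14.8, 16.1 and 14.0 CPM in HCT116oxR and 21.4, 20.9 and 17.2 CPM in parental cells, so the lines came close without overlapping. CYTOR was 1.32-fold lower, with means of 15.0 ± 1.06 CPM in HCT116oxR and 19.8 ± 2.32 CPM in parental cells, a log2 fold change of -0.40 ± 0.12 and an adjusted p of 0.00370.

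CYTOR has a near-identical copy on the same chromosome, MIR4435-2HG (chr2:111195866-111495161), and reads from one can be counted for the other. MIR4435-2HG had 174, 127 and 140 counts in HCT116oxR and 178, 172 and 170 in parental cells. Its log2 fold change was -0.30 ± 0.14, with means of 11.2 ± 1.69 CPM in HCT116oxR and 13.9 ± 0.528 CPM in parental cells, and it did not pass (adjusted p 0.0669). MIR4435-2HG passed without HCT116oxR replicate 1, at -0.41 (adjusted p 0.0286). Which copy gave the reads cannot be told apart, so the values of both are uncertain. CYTOR is also overlapped by the lncRNAs NCAL1, LINC01943 and LOC124906032, which adds to that uncertainty. The likeness is visible in their RefSeq start windows (GRCh38.p14), chr2:87455177-87455476 on the plus strand for CYTOR and chr2:111495112-111495411 on the minus strand for MIR4435-2HG. Over 241 aligned bases the windows had 0 mismatches. Capitals mark AP-1 matches (TGAGTCA), which begin 19 and 9 bases before the start of CYTOR.
CYTOR: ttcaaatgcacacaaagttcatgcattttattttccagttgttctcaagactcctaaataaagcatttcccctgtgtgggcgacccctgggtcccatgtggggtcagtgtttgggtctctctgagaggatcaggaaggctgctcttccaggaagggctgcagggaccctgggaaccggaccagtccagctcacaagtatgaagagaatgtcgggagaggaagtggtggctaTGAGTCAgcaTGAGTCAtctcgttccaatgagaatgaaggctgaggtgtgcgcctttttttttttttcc
MIR4435-2HG: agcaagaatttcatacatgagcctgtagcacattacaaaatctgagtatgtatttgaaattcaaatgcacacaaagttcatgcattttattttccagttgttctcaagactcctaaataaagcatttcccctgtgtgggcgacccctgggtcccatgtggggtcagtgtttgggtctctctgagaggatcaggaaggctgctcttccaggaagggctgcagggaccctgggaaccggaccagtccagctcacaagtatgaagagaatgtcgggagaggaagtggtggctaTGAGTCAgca
In the window of MIR4435-2HG the match begins at base 41 from the start, since the annotated starts of the copies differ, and the window ends 3 bases after it.

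The tested genes nearest to CYTOR changed little beside their errors. LOC102724642, a transcribed pseudogene 258.6 kb away, had a log2 fold change of -0.02 ± 0.54, and MIR4435-1, a miRNA gene 108.2 kb away, had 0.56 ± 0.58. Neither passed, and both averaged under 1 CPM in either line. The median log2 fold change was 0.02 over the 13 tested genes within 1 Mb of CYTOR and -0.01 over the 341 protein-coding genes of the rest of the arm.

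NEAT1, the paraspeckle scaffold (chr11:65422798-65445540), fell by a modest amount with little spread. Counts were 24172, 23699 and 21934 in HCT116oxR and 30749, 28080 and 29026 in parental cells. The levels were 1783, 1768 and 1787 CPM in HCT116oxR and 2320.2, 2361 and 2349 CPM in parental cells. The gap between the lines was many times the spread within either. NEAT1 averaged 1779 ± 9.85 CPM in HCT116oxR and 2344 ± 21.2 CPM in parental cells (SD, n = 3 each) and was 1.32-fold lower (log2 fold change -0.40 ± 0.03, adjusted p 9.80e-30). It took 0.177% to 0.179% of the counts of an HCT116oxR library and 0.230% to 0.235% of those of a parental library. NEAT1 has a short polyadenylated isoform and a long one, and only the long one builds paraspeckles, so a count over the whole gene does not say which isoform changed.

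MALAT1 (chr11:65497738-65506516), the neighbour of NEAT1, held the most counts of any gene in every library. It had 180459, 172531 and 161985 counts in HCT116oxR and 173354, 152477 and 153769 in parental cells. The levels were 13309.5, 12872 and 13196 CPM in HCT116oxR and 13081, 12823 and 12446 CPM in parental cells, and the ranges overlapped. The means of 13126 ± 227 CPM in HCT116oxR and 12783 ± 319 CPM in parental cells (SD, n = 3 each) gave a log2 fold change of 0.04 ± 0.02, which did not pass (adjusted p 0.139). It passed with upper quartile factors (0.06, adjusted p 0.0119) and without HCT116oxR replicate 2 (0.05, adjusted p 0.0369). MALAT1 is overlapped by its antisense transcript TALAM1 and by the small RNA cut from its end, and whether counting used strand is not given in the sources used here.

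The genes around NEAT1 and MALAT1 centred near 0. The 77 tested genes within 1 Mb of MALAT1 had a median log2 fold change of -0.06, and the 74 within 1 Mb of NEAT1 had -0.07. LOC101927789, a transcribed pseudogene that lies between them, rose by 0.61 ± 0.18 (adjusted p 0.00417). FRMD8, a membrane-associated FERM-domain protein whose gene lies 9.3 kb from NEAT1, had a log2 fold change of -0.22 ± 0.08 (adjusted p 0.0151). That call was lost without HCT116oxR replicate 1 (-0.19) or replicate 3 (-0.20).

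Of 29 genes for paraspeckle proteins, 28 were tested, 13 rose, 3 fell and 12 did not pass, where over all genes tested 22.3% rose and 21.8% fell. Their median log2 fold change was 0.10. SFPQ, one of the core proteins that bind NEAT1, averaged 695 ± 1.80 CPM in HCT116oxR and 517 ± 11.6 CPM in parental cells and rose by 0.43 ± 0.03. RBM12 rose by 0.62 ± 0.04, and HNRNPH3 and HNRNPA1, which bind pre-mRNA, rose by 0.44 ± 0.05 and 0.43 ± 0.03. The 3 that fell were HNRNPU, TARDBP and HNRNPK, at -0.17, -0.15 and -0.11, named after their values were seen. No member of this list passed a test against a fold of 1.5. Of 32 genes for nuclear speckle and SR proteins, the splicing factors that MALAT1 meets in speckles, 9 rose, 4 fell and 19 did not pass, and the median was 0.02, beside the same shares over all genes. The splicing factors SRSF3, SRSF7 and SRSF5 rose by 0.33 ± 0.04, 0.29 ± 0.04 and 0.26 ± 0.04, and PNN, a speckle protein also found at cell junctions, fell by 0.32 ± 0.04. None of these passed against a fold of 1.5 either.

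On the long arm of chromosome 8 (8q), CASC8 and CCAT1 rose and PVT1 did not pass. The arm as a whole was raised: of the 281 protein-coding genes more than 1 Mb from PVT1, 198 rose and 17 fell, with a median log2 fold change of 0.51. DNA copy number was not measured here.

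CASC8 (chr8:127289676-127482139), a transcript of the colorectal cancer risk region, had the largest rise of the 10 and few counts. It had 64, 37 and 47 counts in HCT116oxR and 11, 24 and 5 in parental cells. The levels were 4.72, 2.76 and 3.83 CPM in HCT116oxR and 0.830, 2.02 and 0.405 CPM in parental cells. The lines did not overlap, but parental replicate 2 came close to the lowest HCT116oxR library. CASC8 was 3.49-fold higher, with means of 3.77 ± 0.981 CPM in HCT116oxR and 1.08 ± 0.836 CPM in parental cells (SD, n = 3 each), a log2 fold change of 1.80 ± 0.35 and an adjusted p of 7.72e-06. Leaving out parental replicate 2 gave 2.58 and leaving out parental replicate 3 gave 1.42, so the size of the rise rests on single libraries while the call held in each.

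CASC8 overlaps CASC21, CCAT2 and POU5F1B, which had too few counts for a test. POU5F1B, a retrogene of the stem-cell factor OCT4, had 5, 15 and 11 counts in HCT116oxR and 1, 3 and 0 in parental cells. CCAT2 had 7, 3 and 5 counts in HCT116oxR and 3, 2 and 0 in parental cells, and CASC21 had 10, 6 and 3 in HCT116oxR and 4, 4 and 8 in parental cells. Reads shared between these genes and CASC8 cannot be told apart.

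CCAT1 (chr8:127207382-127219268), a lncRNA known for high levels in colon cancer and for its link to enhancers of MYC, had 503, 408 and 435 counts in HCT116oxR and 309, 246 and 297 in parental cells. The levels were 37.1, 30.4 and 35.4 CPM in HCT116oxR and 23.3, 20.7 and 24.0 CPM in parental cells, with no overlap. CCAT1 rose 1.51-fold, with means of 34.3 ± 3.47 CPM in HCT116oxR and 22.7 ± 1.76 CPM in parental cells (SD, n = 3 each), a log2 fold change of 0.60 ± 0.10 and an adjusted p of 6.52e-08. Its change was close to the median around it, 0.55 over the 10 tested genes within 1 Mb that are not among the lncRNAs described here. Those genes ranged from -1.08 to 1.05, with 6 higher and 2 lower. They include small genes nested in PVT1, whose counts can come from the PVT1 precursor. The 2 protein-coding genes among them had a median of -0.02, with 1 higher and 1 lower, so CCAT1 was not close to that median. CASC19, a lncRNA 9.8 kb away, had 0.53 ± 0.21 (adjusted p 0.0285), and did not pass in DESeq2 (0.53), without a filter (0.52), or without HCT116oxR replicate 1 (0.50) or 3 (0.46) or parental replicate 1 (0.54) or 2 (0.42).

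PVT1 (chr8:127794524-128101256), the neighbour of MYC and host of several miRNA genes, had 222, 250 and 206 counts in HCT116oxR and 197, 188 and 171 in parental cells. The levels were 16.4, 18.7 and 16.8 CPM in HCT116oxR and 14.9, 15.8 and 13.8 CPM in parental cells. Every HCT116oxR library lay above every parental one, by a narrow margin. With means of 17.3 ± 1.22 CPM in HCT116oxR and 14.8 ± 0.985 CPM in parental cells (SD, n = 3 each), the log2 fold change of 0.22 ± 0.12 did not pass (adjusted p 0.147).

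MYC, the growth-promoting transcription factor encoded 51.6 kb from PVT1, fell although it lies on the raised arm. It had 3435, 3407 and 3197 counts in HCT116oxR and 4195, 3629 and 3969 in parental cells. Its mean was 256 ± 3.88 CPM in HCT116oxR and 314 ± 8.25 CPM in parental cells (SD, n = 3 each), a log2 fold change of -0.30 ± 0.04 with an adjusted p of 2.57e-12. The next tested gene on the far side of PVT1, GSDMC, a gasdermin 1604.2 kb away, fell by 2.02 ± 0.48 on the log2 scale. Its level was low, 0.503 ± 0.331 CPM in HCT116oxR and 2.07 ± 1.08 CPM in parental cells. Over all alternative settings its log2 fold change lay between -2.70 and -1.49. Between CASC8 and MYC the lncRNA LOC105375754 had -1.08 ± 0.43 (adjusted p 0.0332). That call was lost in DESeq2 (-1.09), without a filter (-1.08), and without HCT116oxR replicate 2 (-0.99) or 3 (-0.87) or parental replicate 1 (-1.03) or 3 (-0.97).

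Set against the median of the protein-coding genes of 8q in the same library, the 8q lncRNAs differed among themselves. CASC8 stood at 1.69 ± 0.347 in HCT116oxR and 0.337 ± 0.961 in parental cells on the log2 scale, a difference of 1.35 in which the lines overlapped. CCAT1 stood at 4.85 ± 0.122 in HCT116oxR and 4.76 ± 0.134 in parental cells, and the lines overlapped with a difference of 0.09. PVT1 stood at 3.87 ± 0.126 in HCT116oxR and 4.15 ± 0.0749 in parental cells, a difference of -0.28 with every HCT116oxR library below every parental one. MYC stood at 7.75 ± 0.0347 in HCT116oxR and 8.54 ± 0.0584 in parental cells, a difference of -0.80. Relative to the arm, then, the lines overlapped for CCAT1, PVT1's own row and MYC were low in HCT116oxR, and CASC8 averaged more in HCT116oxR within its wide spread. These relative levels were added after the data were seen and are given without a test. The level of PVT1 leaves out counts of the small genes nested in it, which can come from its precursor. MIR1204 alone had 473 counts in HCT116oxR and 344 in parental cells, against 678 and 556 for PVT1. Whether PVT1 would stay low with such counts added was not tested.

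**Figure D2:**
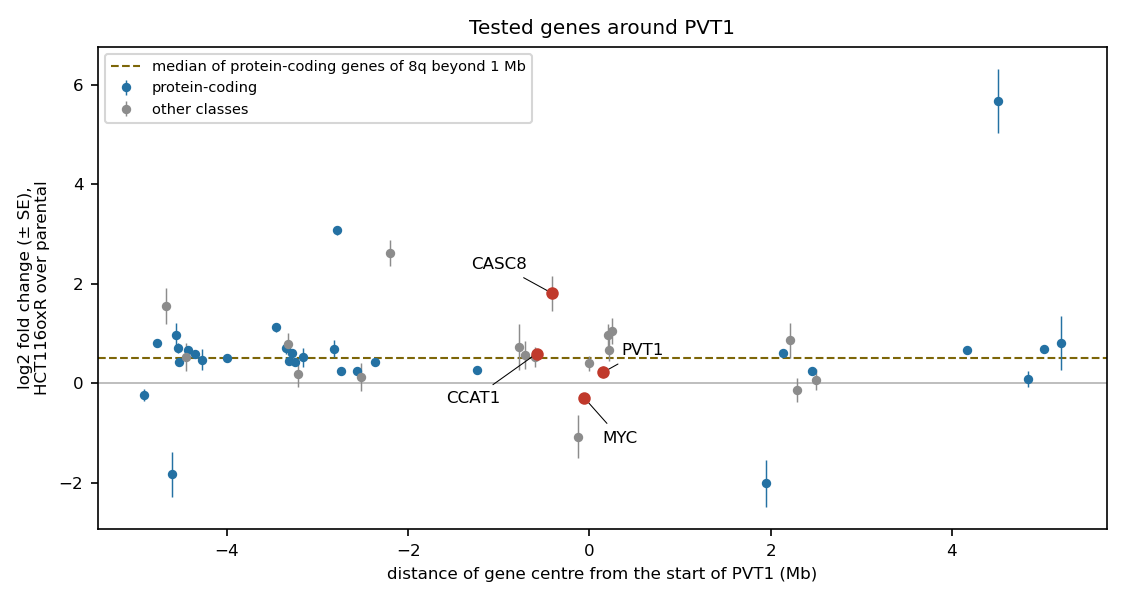
Log2 fold change (HCT116oxR over parental, ± SE) of each tested gene within 5 Mb of PVT1, plotted against the distance of the gene's centre from the start of PVT1 in Mb. The dashed line is the median of the protein-coding genes of 8q more than 1 Mb away, at 0.51. CCAT1 sits near that line, CASC8 above it, PVT1 between it and 0, and MYC below 0.

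The small genes nested in PVT1 had rows of their own in the total RNA table. MIR1207 had 67, 57 and 61 counts in HCT116oxR and 26, 25 and 34 in parental cells and rose by 1.05 ± 0.27 (adjusted p 4.99e-04). RNU1-106P, a U1 pseudogene, had 85, 86 and 103 counts in HCT116oxR and 67, 27 and 41 in parental cells and rose by 0.97 ± 0.22. Against a fold of 1.5 neither MIR1207 nor RNU1-106P passed (adjusted p 0.117 and 0.122), nor did MIR1206 and MIR1204. The counts of these small genes can come from the PVT1 precursor that runs through them. They thus differ from PVT1's own row without being separate transcripts for certain. MIR1206 had a log2 fold change of 0.67 ± 0.23 (adjusted p 0.00998), which did not pass without parental replicate 1 (0.50). MIR1204 had 0.40 ± 0.15 (adjusted p 0.0234), which did not pass in DESeq2 (0.40), without HCT116oxR replicate 3 (0.34) or without parental replicate 2 (0.29). MIR1205 had 7, 7 and 6 counts in HCT116oxR and 6, 9 and 6 in parental cells and was not tested.

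The mature miRNAs of these genes were nearly absent from the small RNA libraries. miR-1204, miR-1205, miR-1206 and miR-1207-3p had at most 4 counts in any library. miR-1207-5p had 3, 14 and 0 counts in HCT116oxR and 0, 1 and 7 in parental cells. miR-1208, encoded near PVT1 but outside its annotated span, had enough counts for a test, with 20, 8 and 4 in HCT116oxR and 17, 10 and 9 in parental cells, a log2 fold change of -0.36 ± 0.58 and an adjusted p of 0.654. miR-612, encoded in NEAT1, had 5, 1 and 2 counts in HCT116oxR and 2, 0 and 1 in parental cells. At these counts no difference was detectable.

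MYC drives ribosome production, nucleotide synthesis and growth. Of 40 genes for MYC, its partners and its direct targets, 37 were tested, 12 rose, 15 fell and 10 did not pass, around a median of 0.04 (log2), beside 22.3% rising and 21.8% falling over all genes tested. MXD1 and MNT, which compete with MYC for its partner MAX, fell by 1.14 ± 0.12 and 1.02 ± 0.07. RRP12, a ribosome assembly factor, fell by 0.63 ± 0.05, and TERT, the catalytic subunit of telomerase, rose by 0.78 ± 0.17. The p53 pathway is known to act on NEAT1 and PVT1, both p53 targets. Of 32 p53 targets, 30 were tested, 5 rose, 9 fell and 16 did not pass, around a median of -0.07. Over all genes tested 44.1% were called, so the share called in this list was near the background. GDF15, a stress cytokine, and TNFRSF10B, a death receptor encoded on chromosome 8, fell by 1.16 ± 0.05 and 1.06 ± 0.03. TP53I3, an oxidoreductase, and TP53INP1, a p53 cofactor encoded on chromosome 8, rose by 1.40 ± 0.17 and 0.94 ± 0.07.

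UCA1 (chr19:15828947-15836321), a lncRNA first found in bladder carcinoma and followed since in drug-resistant tumours, rose. It had 1094, 1107 and 922 counts in HCT116oxR and 515, 515 and 487 in parental cells. The levels were 80.7, 82.6 and 75.1 CPM in HCT116oxR and 38.9, 43.3 and 39.4 CPM in parental cells. The lowest HCT116oxR library lay well above the highest parental one. UCA1 was 1.96-fold higher, with means of 79.5 ± 3.89 CPM in HCT116oxR and 40.5 ± 2.42 CPM in parental cells (SD, n = 3 each), a log2 fold change of 0.97 ± 0.07 and an adjusted p of 1.84e-26. LOC102724279, a transcribed pseudogene 15.7 kb away, rose alongside by 1.03 ± 0.20 (adjusted p 5.70e-06), with means of 8.12 ± 0.579 CPM in HCT116oxR and 3.96 ± 0.451 CPM in parental cells. UCA1 is overlapped along its whole length by LOC124900418, annotated as protein-coding, and reads shared between them cannot be told apart. ZNF861P, a zinc-finger pseudogene 5.2 kb away on the other side, had -0.53 ± 0.52. The 31 tested genes within 1 Mb had a median log2 fold change of -0.12.

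CRNDE (chr16:54918863-54928886), named for its differential expression in colorectal neoplasia, rose too. It had 171, 170 and 201 counts in HCT116oxR and 80, 81 and 78 in parental cells. The levels were 12.6, 12.7 and 16.4 CPM in HCT116oxR and 6.04, 6.81 and 6.31 CPM in parental cells, and replicate 3 was the highest of the HCT116oxR libraries. CRNDE was 2.17-fold higher, with means of 13.9 ± 2.15 CPM in HCT116oxR and 6.39 ± 0.393 CPM in parental cells (SD, n = 3 each), a log2 fold change of 1.12 ± 0.16 and an adjusted p of 8.42e-10. IRX5, a homeobox gene whose start lies beside that of CRNDE on the opposite strand, averaged 1.45 ± 0.750 CPM in HCT116oxR and 0.830 ± 0.543 CPM in parental cells. Its log2 fold change of 0.79 ± 0.47 did not pass (adjusted p 0.175), except without parental replicate 3 (1.46, adjusted p 0.0394). IRX3, another homeobox gene of the cluster 632.1 kb away, was higher at 2.27 ± 0.730 CPM in HCT116oxR and 0.816 ± 0.534 CPM in parental cells (log2 fold change 1.48 ± 0.43, adjusted p 0.00238). Over all alternative settings the log2 fold change of IRX3 lay between 1.18 and 2.13. The rise of IRX3 did not pass against a fold of 1.5 (adjusted p 0.0569). The 7 tested genes within 1 Mb had a median of 0.08, and the 5 protein-coding genes among them had 0.79.

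**Figure D3:**
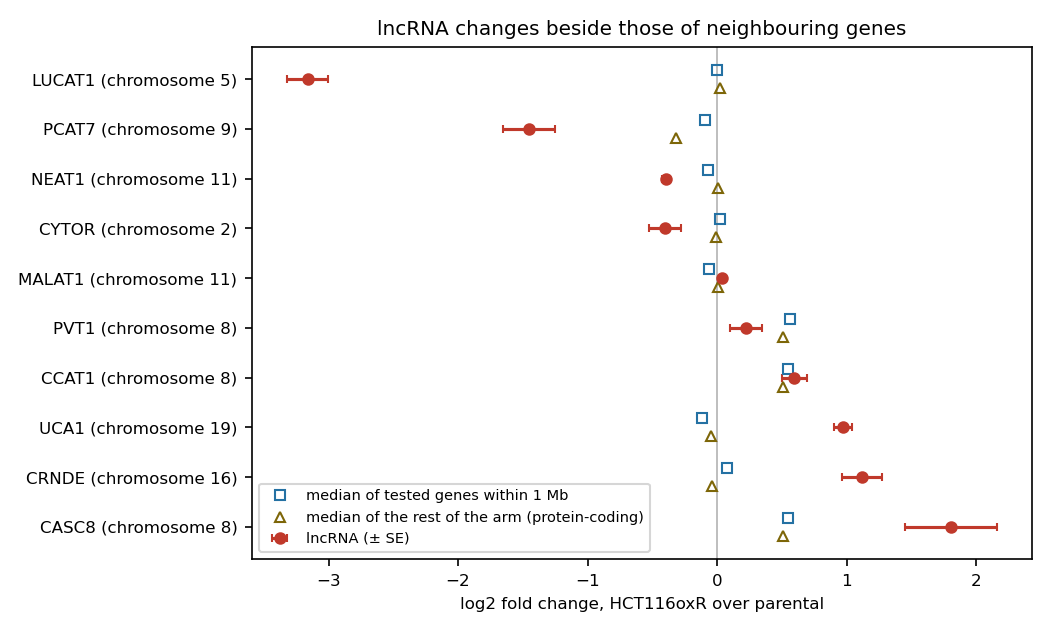
Log2 fold change (HCT116oxR over parental) of each lncRNA with its SE. Beside it are the median of tested genes within 1 Mb and the median of the protein-coding genes of the rest of its chromosome arm. CCAT1 lies near both medians of its surroundings. LUCAT1, PCAT7, UCA1, CRNDE and CASC8 each lie apart from both of theirs. For CRNDE the 5 protein-coding genes within 1 Mb had a higher median, 0.79, which is not plotted. By smaller distances, NEAT1, CYTOR and PVT1 lie below both of their medians. For PVT1, CCAT1 and CASC8 the genes within 1 Mb include small genes nested in PVT1. The 1 protein-coding gene tested within 1 Mb of PVT1, MYC, had -0.30. The 2 protein-coding genes tested within 1 Mb of CCAT1, and likewise of CASC8, had a median of -0.02, which is not plotted. For CASC8 the lines overlapped when set against the arm.

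Other cancer lncRNAs moved in both directions. Of 65 listed, 64 were in the table and 41 were tested, of which 17 rose, 5 fell and 19 did not pass, where over all lncRNAs tested 13.6% rose and 19.5% fell. Their median on the log2 scale was 0.21, against -0.08 over all lncRNAs tested. H19, an imprinted fetal lncRNA, had 23, 27 and 26 counts in HCT116oxR and 4, 1 and 5 in parental cells and rose by 2.82 ± 0.54. FIRRE, an X-linked lncRNA of nuclear organisation, averaged 29.0 ± 0.431 CPM in HCT116oxR and 10.7 ± 2.34 CPM in parental cells and rose by 1.45 ± 0.12. LINC00511 rose by 1.35 ± 0.27, and MIR22HG, the host of miR-22, fell by 1.35 ± 0.19. MIR31HG, CDKN2B-AS1, HOTAIRM1 and TUG1 also fell, at -1.20, -1.05, -0.76 and -0.32, named after their values were seen. At least a 2-fold change was seen in 6 of those that rose and 3 of those that fell.

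**Figure D4:**
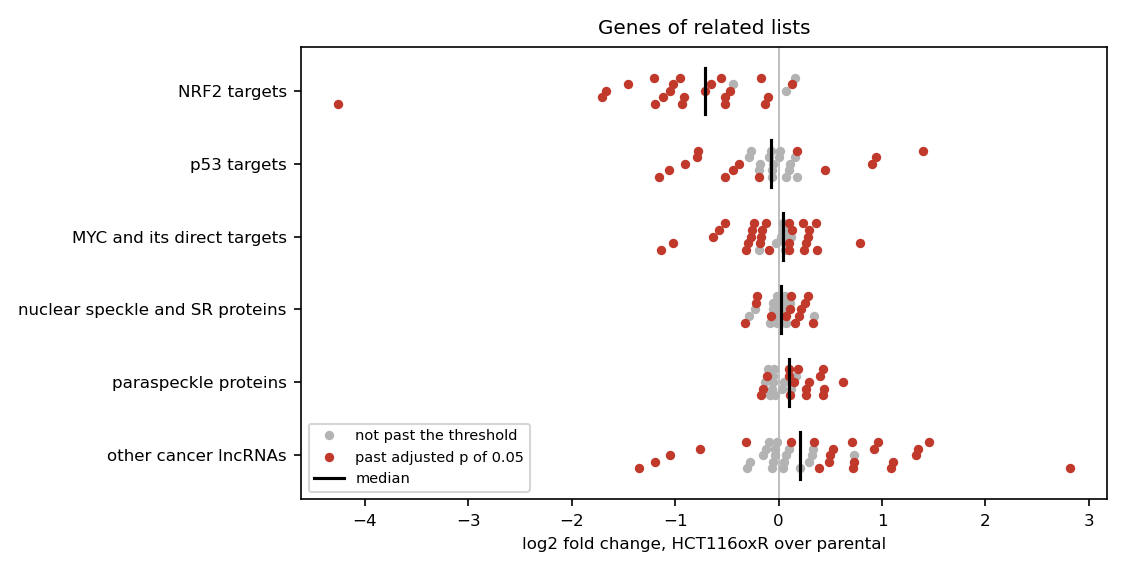
Log2 fold change (HCT116oxR over parental) of each tested gene in 6 lists of related genes. Points are genes, filled red where the adjusted p was under 0.05, and black bars are list medians. NRF2 targets lie mostly below 0 with a median of -0.71, and the other lists spread to both sides.

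For each lncRNA the other lncRNA with the most similar pattern over the 6 total RNA libraries was found among 1883, by the root mean square difference of centred log2 CPM. The likest were at 0.0121 for NEAT1 (TMEM147-AS1), 0.0374 for MALAT1 (FGD5-AS1), 0.0422 for CYTOR (LOC107986015), 0.0476 for PVT1 (BAIAP2-AS1) and 0.0787 for UCA1 (C1RL-AS1). CCAT1 was nearest to NIPBL-AS1 at 0.0817 and CRNDE to C6orf223 at 0.120. The larger distances were 0.171 for PCAT7 (LOC100507103), 0.225 for LUCAT1 (LOC101928004) and 0.235 for CASC8 (LOC101928095). The partners of PCAT7 and of CASC8 lie on the same chromosome as the lncRNA itself. Since they were picked for likeness over these same libraries, the changes of these lncRNAs between the lines are no separate result.

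Several of these lncRNAs have been reported to bind miRNAs and so compete with messenger RNAs for them. Of the 17 miRNAs listed for this that had enough counts, 5 rose, 5 fell and 7 did not pass, around a median of -0.11 (log2). Of all 975 miRNAs tested, 44.7% were called, 23.5% higher and 21.2% lower. The RefSeq mature sequences of 6 of the called miRNAs, those also plotted by library, are shown with the seed, the bases 2 to 8 that pair with targets, in capitals.
miR-145-5p: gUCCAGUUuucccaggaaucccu
miR-143-3p: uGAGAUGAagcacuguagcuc
miR-138-5p: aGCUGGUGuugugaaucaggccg
miR-152-3p: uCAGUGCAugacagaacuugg
miR-181a-5p: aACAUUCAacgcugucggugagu
miR-34a-5p: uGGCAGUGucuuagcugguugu
No pair among these shared a seed. The let-7 miRNAs reported for CCAT1 did, let-7a-5p, let-7b-5p and let-7c-5p all carrying GAGGUAG.

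miR-145-5p, reported for MALAT1, rose most clearly. It had 4370, 3852 and 4321 counts in HCT116oxR and 1672, 1526 and 1334 in parental cells, and was 2.45-fold higher at 232 ± 13.8 CPM in HCT116oxR against 95.0 ± 10.5 CPM in parental cells (log2 fold change 1.29 ± 0.09, adjusted p 1.55e-07). Its cluster partner miR-143-3p, reported for UCA1 and encoded beside it on chromosome 5, rose by 0.96 ± 0.08 (adjusted p 1.26e-06), with 149 ± 7.36 CPM in HCT116oxR and 76.4 ± 6.69 CPM in parental cells. Both miRNAs lay higher in all HCT116oxR libraries.

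miR-152-3p, reported for PVT1, fell by 0.98 ± 0.09 (adjusted p 2.04e-06), with 46.5 ± 4.31 CPM in HCT116oxR and 91.7 ± 3.23 CPM in parental cells. miR-181a-5p, reported for CRNDE, fell by 0.65 ± 0.05 (adjusted p 1.26e-06), with 1026 ± 59.4 CPM in HCT116oxR and 1609 ± 32.4 CPM in parental cells. The fall of miR-181a-5p did not pass against a fold of 1.5 (adjusted p 0.183). For CRNDE and miR-181a-5p, UCA1 and miR-182-5p, and CCAT1 and let-7a-5p, the lncRNA was higher and the miRNA lower in HCT116oxR. For CYTOR and miR-138-5p the lncRNA was lower and the miRNA higher. UCA1, miR-143-3p and miR-204-5p were all higher, and NEAT1 and miR-34a-5p were both lower. MALAT1 did not pass while miR-145-5p and miR-218-5p rose, and PVT1 did not pass while miR-152-3p fell. Whether any of these pairs is linked was not tested. miR-34a-5p, the p53-induced miRNA reported for NEAT1, fell to 271 ± 9.66 CPM in HCT116oxR, against 319 ± 5.32 CPM in parental cells (log2 fold change -0.23 ± 0.06, adjusted p 0.00478), a call lost without HCT116oxR replicate 2 (-0.18).

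The remaining calls among these miRNAs, like those of miR-34a-5p and miR-181a-5p, did not hold in every setting. miR-138-5p, reported for CYTOR, had 53, 20 and 28 counts in HCT116oxR and 10, 6 and 13 in parental cells (1.60 ± 0.46, adjusted p 0.0139), and did not pass without HCT116oxR replicate 1 (1.19). miR-204-5p, reported for UCA1, had 11, 23 and 13 counts in HCT116oxR and 0, 7 and 0 in parental cells (2.51 ± 0.90, adjusted p 0.0384). It did not pass without parental replicate 1 (1.94) or replicate 3 (1.95), and without parental replicate 2 the parental libraries hold 0 counts. miR-182-5p, reported for UCA1, had a log2 fold change of -0.21 ± 0.05 (adjusted p 0.00366) that did not pass without HCT116oxR replicate 2 (-0.17). miR-218-5p for MALAT1 (0.24 ± 0.08, adjusted p 0.0344) and let-7a-5p for CCAT1 (-0.11, adjusted p 0.0492) did not pass in DESeq2 and in several other settings. The 7 that did not pass had log2 fold changes between -0.81 for miR-136-5p and 0.11 for let-7b-5p.

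**Figure D5:**
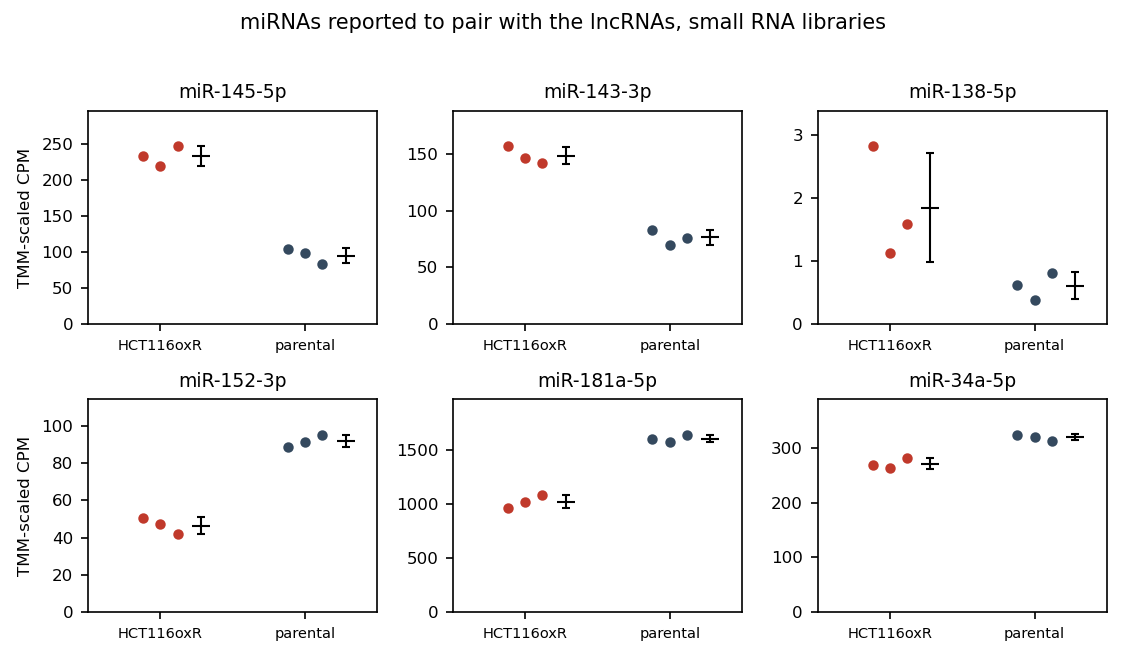
Level of 6 miRNAs reported to bind the lncRNAs in every small RNA library, as CPM scaled by TMM factors, with HCT116oxR on the left and parental cells on the right. Points are libraries, and bars give the mean and SD of 3. The upper row shows miRNAs that were higher in HCT116oxR and the lower row miRNAs that were lower.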

How the data were processed

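Total RNA and small RNA libraries of HCT116oxR and parental HCT116 cells were analysed, 3 of each kind per line. Per the labels' protocols, RNA had an integrity number above 8.0. The authors deposited raw counts, 1 table of 54261 genes and 1 of 2588 mature miRNAs. Reads were aligned to GRCh38 with HISAT2 (total RNA) and BWA (small RNA) per the submitters' processing notes. Tool versions, the counter, the annotation, the use of strand and the handling of multi-mapping reads were not given in the sources used here, so overlapping genes and near-identical copies are named as uncertain.

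Each kind of RNA was fitted on its own with edgeR 4.0.16 under R 4.3.3, using filterByExpr (minimum count 10, minimum total 15), TMM factors, and the 2-sided quasi-likelihood F test with robust dispersion. P-values were adjusted by Benjamini-Hochberg over all 17511 genes or 975 miRNAs tested, with a threshold of 0.05. A log2 fold change is HCT116oxR over parental. Its SE, the size of the log2 fold change divided by the root of F, is approximate for low counts. Levels are CPM scaled by TMM, with the SD of 3 libraries. The common biological coefficient of variation was 4.77% for genes and 12.4% for miRNAs, so genes with few counts are limited by counting error. Libraries of 1 line differed by more than sampling noise, so each counted as 1 replicate. Chi-square per degree of freedom was 2.21 to 3.01 for total RNA. For small RNA it was 5.40 to 9.61 in parental cells and 20.8 to 67.9 in HCT116oxR, whose small RNA libraries thus differed more among themselves. The fit was tested on simulated data.

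Gene positions and classes came from the RefSeq gene table of GRCh38.p14, which matched 45968 genes on the symbol, 3686 on the gene number and 1811 on an older symbol, leaving 2796 unmatched. Promoter and miRNA sequences are from RefSeq, GRCh38.p14, and 5 of the 10 lncRNAs had a promoter entry. None from chromosome 8 is shown. The lncRNAs, lists and tests were chosen with earlier results of these data known, and the lists came from general knowledge. All 10 lncRNAs were named whatever their test, as were the nearest tested gene on each side, the likest lncRNA, the miRNAs of the list, and up to 4 called genes of each list with the largest change. The result of 1 neighbouring gene is not reported here. Alternatives were DESeq2 1.42.0, RLE and upper quartile factors, no filter, a replicate block, a test against a fold of 1.5 (glmTreat), a window of 5 Mb, and leaving out each library in turn.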

Additional observations from a re-analysis of the deposited data

How the results depend on the processing

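The 4 lncRNAs that rose and the 4 that fell kept their direction in every setting. With DESeq2, RLE factors, no filter or the replicate block, 4 rose and 4 fell, and with upper quartile factors 5 rose (MALAT1 added) and 4 fell. Over all genes the main test called 3906 higher and 3815 lower, DESeq2 3415 and 3365, and RLE factors 3893 and 3835. Without a filter the numbers were 3845 and 3791, and with upper quartile factors 4216 and 3488. Leaving out 1 library gave 4 to 5 rising and 4 falling, beside 3542 to 3680 higher and 3452 to 3625 lower genes. Tested against a fold of 1.5, 3 rose (CCAT1 no longer passed) and 2 fell (NEAT1 and CYTOR no longer passed). In that test 820 of the 17511 genes tested were higher and 610 lower. Of the 1884 lncRNAs tested 89 were higher and 112 lower, and of the 975 miRNAs tested 65 and 73. Of the 25 NRF2 targets tested, 13 were lower and 0 higher in that test. Of 30 p53 targets 3 were higher and 3 lower, and of 37 genes of the MYC list 0 and 2. Of 41 other cancer lncRNAs 7 were higher and 1 lower, and 0 of the 28 paraspeckle or 32 speckle genes passed. Same-numbered libraries did not deviate together (correlations of -0.00705, -0.0134 and -0.0275 in total RNA and 0.0789, -0.0431 and -0.144 in small RNA), so the numbers do not pair them. A replicate block gave 3828 higher and 3737 lower genes and 213 higher and 192 lower miRNAs. Values near 0 changed sign: LOC102724642 beside CYTOR was 0.0048 and miR-9-5p -0.023 with upper quartile factors, and miR-101-3p was 0.024 without a filter. Leaving out 1 library gave ranges of -0.31 to 0.26 for LOC102724642, -0.092 to 1.07 for MIR4435-1, -0.30 to 0.085 for LOC107987100, -0.11 to 0.085 for miR-101-3p, -1.10 to 0.035 for miR-1208 and -0.88 to 0.18 for miR-193a-3p. The cause was not tested. Within 5 Mb instead of 1 Mb, the median of neighbouring genes moved by more than the lncRNA's SE for MALAT1 (0.00), NEAT1 (-0.00) and LUCAT1 (0.16). It moved by less than that SE for the others, to -0.26 for PCAT7, and changed sign for CRNDE (-0.04) and CYTOR (-0.05). Low counts, as for CASC8 in parental cells, limit the precision of a fold change.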
